A study of Mus musculus with 45 samples.

Results

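Imprinted genes are expressed mainly from the copy inherited from one parent. Of these, 10 were followed by name in SLAM-seq libraries of mouse cortical cells: Gnas, Peg3, Meg3, Igf2, H19, Dlk1, Ndn, Snrpn, Plagl1 and Grb10. These 10 were taken by their symbols from the 53491 genes in the tables, by a rule that uses no measured value, although the set was proposed with earlier results of these data known. The cells were wild-type (WT) primary cells from the embryonic cortex, taken at E11.5, then E14.5, then E16.5. Each stage had 3 biological replicates (A, B and C). A replicate pooled the cortices of 7 embryos at E11.5 or of 2 embryos at each later stage, and its cells were divided over 5 wells. All cells were kept in neural progenitor medium with 100 uM 4-thiouridine (4sU) for 20 h before 5 mM uridine was added as the chase. One well of each pool was lysed at 0, 2, 4, 8 and 12 h of chase, which gave 45 libraries. 4sU is a uridine analogue that is read as C in place of T after alkylation, so the share of T positions read as C, the conversion rate, measures how much of an RNA was made during labelling. The sequence counts do not separate the parental copies, so every value below is a sum over both.

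The marks that silence one parental copy are DNA methylation at imprinting control regions, set in the egg or the sperm and kept after fertilization. Imprinted genes lie in clusters under common control regions. Igf2 and H19 share one on distal chromosome 7, Dlk1 and Meg3 one on chromosome 12, and Snrpn and Ndn lie together in the region deleted in Prader-Willi syndrome. Many of these genes act on fetal growth, and several are known for high expression in embryonic progenitors or in neurons. The copy in use can depend on the tissue: Grb10 is expressed from the maternal copy in most tissues and from the paternal copy in neurons, and Igf2 from both copies in the choroid plexus and the leptomeninges.

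The gene starts below are shown because Grb10, Plagl1 and Peg3 fell together between the stages while Snrpn rose. Each is a RefSeq promoter window on GRCm38.p6 of 300 bases, 250 before and 50 after a transcription start, written 5′ to 3′ on the strand of the gene. Capitals mark CG dinucleotides, the sites of DNA methylation. The windows are Grb10 at chr11:12037371-12037670 (minus strand), Plagl1 at chr10:13090582-13090881 (plus strand), Peg3 at chr7:6730370-6730669 (minus strand) and Snrpn at chr7:60140176-60140475 (minus strand). Those of Peg3 and Snrpn cross the annotated start of the gene, and those of Grb10 and Plagl1 belong to starts inside it.
Grb10: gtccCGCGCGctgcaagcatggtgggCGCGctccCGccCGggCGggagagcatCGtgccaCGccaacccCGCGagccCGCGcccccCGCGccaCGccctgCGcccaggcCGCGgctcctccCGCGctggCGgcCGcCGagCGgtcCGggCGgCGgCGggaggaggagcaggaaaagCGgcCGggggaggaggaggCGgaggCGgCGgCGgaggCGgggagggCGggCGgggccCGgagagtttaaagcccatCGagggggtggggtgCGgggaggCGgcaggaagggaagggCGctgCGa
Plagl1: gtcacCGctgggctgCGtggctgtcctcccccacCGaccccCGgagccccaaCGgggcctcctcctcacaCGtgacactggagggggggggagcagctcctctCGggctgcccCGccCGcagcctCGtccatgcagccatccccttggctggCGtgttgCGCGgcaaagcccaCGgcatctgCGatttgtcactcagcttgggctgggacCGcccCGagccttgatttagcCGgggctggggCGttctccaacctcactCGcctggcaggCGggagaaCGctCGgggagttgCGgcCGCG
Peg3: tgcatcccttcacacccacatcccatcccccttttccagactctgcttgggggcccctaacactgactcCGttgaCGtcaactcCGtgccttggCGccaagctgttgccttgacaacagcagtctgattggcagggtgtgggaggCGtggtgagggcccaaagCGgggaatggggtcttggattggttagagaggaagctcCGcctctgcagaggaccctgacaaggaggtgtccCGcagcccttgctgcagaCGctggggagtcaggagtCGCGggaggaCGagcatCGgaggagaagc
Snrpn: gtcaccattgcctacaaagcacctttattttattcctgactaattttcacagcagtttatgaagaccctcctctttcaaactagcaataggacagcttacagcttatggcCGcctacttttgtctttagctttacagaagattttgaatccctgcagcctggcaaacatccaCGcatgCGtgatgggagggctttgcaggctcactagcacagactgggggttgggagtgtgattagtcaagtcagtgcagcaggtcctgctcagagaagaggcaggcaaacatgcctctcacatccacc

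The Grb10 window shown holds 45 CG, which is more than in 98.1% of all 32851 windows, where the median is 7. Neither Grb10 window crosses the annotated start of the gene, and this one was shown because it holds more CG. Its high rank therefore follows in part from that choice. The Snrpn window was instead chosen by its position at the annotated start, so the CG counts of the windows shown are not a like comparison. The other window of Grb10, at chr11:12027922-12028221, holds 9, and the other 3 of Snrpn hold 2 to 7. That of Plagl1 holds 26, that of Peg3 13 and that of Snrpn 3. In all, 20 windows matched 9 of the 10 genes, and H19 had none. The palindrome GGGGCCCC, which the Plagl1 protein is known to bind, was searched in the 20 windows. It occurs in that of Peg3 and in 1.08% of all windows.

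H19 and Meg3 are long noncoding RNAs whose exons hold miRNAs, shown because reads over them cannot be told from reads of the host. The RefSeq mature sequences follow, with the seed (bases 2 to 8) in capitals. No 2 of the 4 share a seed. Those of H19 lie at chr7:142577078-142577099 and chr7:142577112-142577133 (minus strand), and those of Meg3 at chr12:109563710-109563731 and chr12:109563744-109563765 (plus strand).
miR-675-3p: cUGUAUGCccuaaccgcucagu
miR-675-5p: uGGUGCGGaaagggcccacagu
miR-770-5p: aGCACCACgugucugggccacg
miR-770-3p: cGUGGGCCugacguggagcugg

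Libraries held 15.9 to 43.9 M reads, with 228.7 to 629.1 M covered T positions. The conversion rate summed over genes was 1.01 to 1.44% at E11.5, 1.03 to 1.18% at E14.5 and 1.80 to 1.91% at E16.5, at 0 h. The cortical markers Emx1, Emx2 and Pax6 were present in all 9 libraries at 0 h, at 301 to 328 CPM (reads scaled to library size) in sum at E11.5, 136 to 139 CPM at E14.5 and 87.7 to 99.1 CPM at E16.5. Radial glia markers summed to 9633 to 10168 CPM at E11.5 and 1467 to 1615 CPM at E16.5, and neuron markers to 2739 to 3276 and 8012 to 8325 CPM. Most of the radial glia sum at E11.5 was Vim, at 6736 to 7225 CPM. Of the radial glia markers, Slc1a3 went the other way, from 93.9 to 105 CPM at E11.5 to 181 to 205 CPM at E16.5. RNA of other cell types also moved with the stage. All 8 markers of meningeal fibroblasts were detected at each stage and summed to 429 to 662 CPM at E11.5, 31.2 to 37.3 CPM at E14.5 and 16.4 to 28.6 CPM at E16.5. Most of the E14.5 sum was 1 of them, Cemip, and the other 7 summed to 427 to 659, 5.21 to 5.34 and 5.96 to 20.4 CPM, highest at E16.5 in pool B. The 6 erythroid markers summed to 1447 to 3257, 15.6 to 27.2 and 1.94 to 3.69 CPM. The 7 mural markers summed to 63.3 to 88.7, 12.3 to 14.48 and 17.8 to 27.1 CPM, with Kcnj8 at 0 in the E14.5 libraries. Endothelial markers stayed at 1.104 to 5.95 CPM and microglial markers at 5.87 to 14.1 CPM over all 9 libraries. Libraries of 2 kinds stood apart. Pool B at E16.5 held 279 to 392 CPM of Ttr, a choroid plexus gene, in its 5 wells, against at most 0.134 CPM in pools A and C. In the E11.5 libraries at 12 h, the abundant transcript Gm42418 took 2.97 to 6.76% of the reads, against 0.386 to 0.948% at 0 h.

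The 10 genes differed widely in level. Per kilobase of exon, Ndn and Gnas led at E11.5 with means of 137 and 132 CPM per kb, and their replicates overlapped. Ndn encodes necdin, a growth suppressor of postmitotic neurons, and Gnas the alpha subunit of the stimulatory G protein. Grb10, an adaptor that restrains the insulin and IGF1 receptors, followed with 109 CPM per kb. Then came Peg3, Plagl1, Snrpn, H19, Dlk1 and Meg3, and Igf2 was lowest with 0.187 CPM per kb. The neighbours Peg3 and Plagl1, H19 and Dlk1, and Meg3 and Igf2 overlapped in this order. At E14.5, Gnas (93.1 CPM per kb) and Ndn (89.0 CPM per kb) led with overlapping replicates. At E16.5 no neighbours overlapped, and the order was Gnas (105 CPM per kb), Ndn (74.9 CPM per kb), Snrpn (36.5 CPM per kb), Grb10 (19.2 CPM per kb), Plagl1, Peg3, H19, Meg3, Dlk1 and Igf2. Snrpn thus moved from the sixth to the third place of the per-kilobase levels and Grb10 from the third to the fourth.

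**Figure D1:**
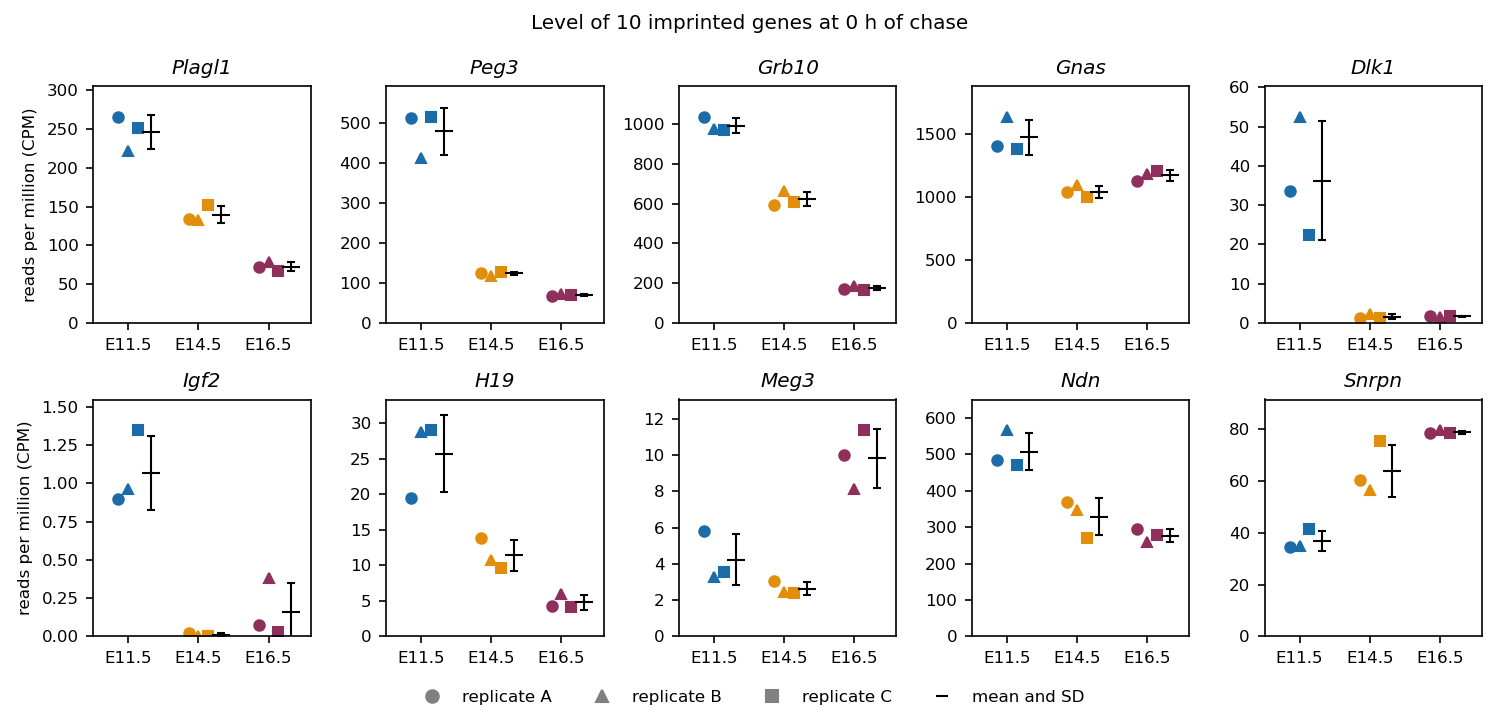
Level of each gene at 0 h of chase in CPM (each axis from 0), by stage. Points are the 3 replicates, and black marks the mean with its SD. Snrpn and, at E16.5, Meg3 were highest at the last stage, while most other genes were highest at E11.5.

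Expression at 0 h was compared between the stages to see which of the genes change as the cortex develops. Between E11.5 and E16.5, 5 of the 9 genes that could be tested fell by more than 1 on the log2 scale (Dlk1, Peg3, Grb10, H19 and Plagl1). Of all 18408 genes tested, 14.6% fell by this rule. Snrpn and Meg3 rose, as did 14.7% of all genes tested, so that 7 of 9 were called in either direction, against 29.3%. The median log2 fold change of the 9 was -1.70, against -0.04 over all genes tested. Calls come from edgeR's quasi-likelihood F-test and needed both an adjusted p under 0.05 and a log2 change beyond 1. Igf2 did not pass the filter of more than 10 covered Ts in all 9 libraries.

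The falls were not spread evenly over the intervals. From E11.5 to E14.5, Dlk1, Peg3 and H19 were called lower and 0 of 9 higher, although all 9 had an unadjusted p under 0.05. For this and later counts at an unadjusted p, the share of all genes at that level is not given here. Over all genes tested, 8.00% were called lower, 8.14% higher and 16.1% in either direction. The median log2 fold change of the 9 was -0.66, against -0.01. From E14.5 to E16.5, Grb10 and H19 were called lower and Meg3 higher. Here 5.92% of all genes were lower, 7.19% higher and 13.1% either, and the median of the 9 was -0.30, against 0.00. The replicates did not overlap for 10 of 10 genes between E11.5 and E14.5, for 8 of 10 between E14.5 and E16.5 (Dlk1 and Ndn overlapped) and for 10 of 10 between E11.5 and E16.5. Among the 19059 genes with a read in each of the 9 libraries, which leave out Igf2, these shares were 54.4, 60.3 and 70.2%. Igf2 counted as separate between E14.5 and E16.5 on 1, 0 and 0 reads against 2, 16 and 1. Its closest libraries of the 2 stages held 1 read each and differed in CPM by depth only. In bulk RNA, fewer cells of a type and less of the RNA per cell cannot be told apart.

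**Figure D2:**
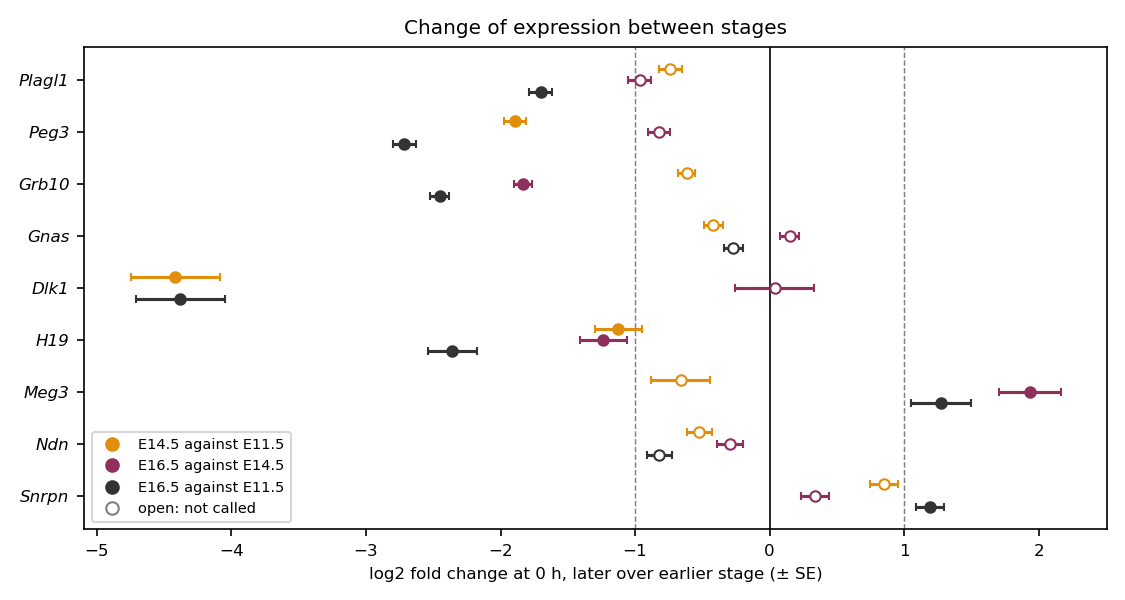
Log2 fold change at 0 h (later over earlier stage) with its SE from edgeR for the 9 genes tested. Filled points were called, open points were not, and dashed lines mark a log2 change of 1 in either direction. Dlk1 lies farthest to the left, at -4.42 and -4.38 against E11.5, and Meg3 farthest to the right, at 1.93.

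Among the genes for growth factors and their signalling, Dlk1 and Igf2 were found mainly at E11.5. Dlk1, a transmembrane protein related to Notch ligands, was at 33.6, 52.5 and 22.4 CPM in the 3 replicates at E11.5. It was at 1.36, 2.37 and 1.13 CPM at E14.5 and at 1.83, 1.61 and 1.68 CPM at E16.5. All replicates of E11.5 lay above all of the later stages, which overlapped each other. The log2 fold change was -4.42 ± 0.33 (SE, adjusted p = 2.22e-07 by edgeR) from E11.5 to E14.5 and 0.04 ± 0.30 (adjusted p = 0.928) over the next interval. Igf2, the fetal growth factor, was near the floor. It was at 0.8997, 0.962 and 1.35 CPM at E11.5, at 0.0212, 0 and 0 CPM at E14.5, and at 0.0761, 0.379 and 0.0267 CPM at E16.5. The E11.5 libraries held 78 Igf2 reads against 1 at E14.5, a depth-corrected ratio of 124 (95% exact counting interval 21.6 to 4946). Against the 19 reads of E16.5 the ratio was 5.98 (3.59 to 10.5), and against the 3 reads of E16.5 A and C alone it was 22.8 (7.51 to 113). These intervals cover counting error only. Igf2 in pool B at E16.5 was at 0.379 to 0.728 CPM in all 5 wells and at most 0.0905 CPM in the wells of A and C, which is the split that Ttr showed. The share of choroid plexus or meningeal RNA in the levels of Dlk1 and Igf2 was not tested. Without pool B at E16.5, the same 7 genes were called between E11.5 and E16.5.

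Grb10 was lower at each later stage, and its second step was the larger. It was at 1037, 974 and 969 CPM at E11.5, at 594, 662 and 609 CPM at E14.5, and at 173, 185 and 165 CPM at E16.5. The groups did not overlap. The log2 fold change was -0.62 ± 0.07 (adjusted p = 5.45e-06 by edgeR, short of the fold threshold) over the first interval and -1.84 ± 0.07 (adjusted p = 5.78e-09) over the next. Gnas changed least of the 9 from E11.5 to E14.5 and over the whole period. Its levels were 1402, 1634.5 and 1379 CPM at E11.5, 1037, 1090 and 996 CPM at E14.5, and 1125, 1182 and 1209 CPM at E16.5. The log2 fold changes were -0.42 ± 0.07 and 0.15 ± 0.07, and none of its comparisons passed the fold threshold.

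The zinc finger genes of the set, Plagl1 and Peg3, both fell over the whole period. Plagl1, a transcription factor that acts on other imprinted genes, was at 266, 222 and 251 CPM at E11.5. It was at 134, 133 and 152 CPM at E14.5 and at 71.9, 78.5 and 67.1 CPM at E16.5. No replicates overlapped between stages. The log2 fold changes of -0.74 ± 0.09 and -0.97 ± 0.09 each missed the fold threshold, and that of the whole period, -1.70 ± 0.09 (adjusted p = 2.58e-09 by edgeR), passed it. Without E14.5 A, E14.5 B or E16.5 B, the second change was -1.00, -1.00 or -1.02 and was called. Peg3, a zinc finger protein named for its paternal expression, was at 511, 411 and 514 CPM at E11.5, 126, 118 and 127 CPM at E14.5, and 67.0, 72.6 and 70.0 CPM at E16.5. Its groups were separate at each step. The first step was the larger one, with a log2 fold change of -1.89 ± 0.08 (adjusted p = 2.18e-09 by edgeR), against -0.82 ± 0.08.

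The noncoding RNAs H19 and Meg3 went in opposite directions. H19 was at 19.5, 28.7 and 29.0 CPM at E11.5, at 13.8, 10.8 and 9.58 CPM at E14.5, and at 4.26, 5.92 and 4.14 CPM at E16.5. It fell in each interval without overlap, by a log2 fold change of -1.12 ± 0.18 (adjusted p = 0.000163 by edgeR) and then -1.24 ± 0.18 (adjusted p = 8.67e-05). Meg3 was at 5.83, 3.27 and 3.58 CPM, then at 3.04, 2.47 and 2.39 CPM, and at 9.97, 8.11 and 11.3 CPM at E16.5. Its lowest values were those of E14.5 and its highest those of E16.5. Its log2 fold change was -0.66 ± 0.22 (adjusted p = 0.0259 by edgeR) to E14.5 and 1.93 ± 0.23 (adjusted p = 1.70e-05) to E16.5. At E14.5 Meg3 rested on 75 to 143 reads per library. Its first change was -0.33 (adjusted p = 0.156 by edgeR) without E11.5 A, and the adjusted p was 0.0825 without E14.5 B and 0.0848 without E14.5 C.

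Snrpn and Ndn, neighbours on chromosome 7, also differed in direction. Snrpn, which encodes the spliceosomal protein SmN of neurons, was at 34.3, 35.0 and 41.3 CPM at E11.5, at 60.3, 56.4 and 75.3 CPM at E14.5, and at 78.5, 79.5 and 78.5 CPM at E16.5. The groups rose without overlap, and the log2 fold change over the whole period was 1.19 ± 0.11 (adjusted p = 4.31e-07 by edgeR). Ndn was at 485, 565 and 471 CPM, at 368, 347 and 271 CPM, and at 295, 258 and 277 CPM at E16.5. Its change over the period, -0.82 ± 0.09 (adjusted p = 5.72e-06), did not pass the fold threshold.

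Several of these genes share exon sequence with other genes, which bears on what a count means. Igf2 (chr7:142650766-142666816, minus strand, GRCm38) shares 3596 of its 5723 exon bases, 62.8%, with Gm49394 on the same strand, and Gm49394 was counted at no more than 0.144 CPM in any library. How reads in such exons were assigned is not given in the sources used here. Snrpn (chr7:59982495-60140219, minus strand) shares 27.3% of its exon bases with Gm38393, which was at most 0.324 CPM, and 10.0% with Snurf, not analysed here. The processed sequence Gm5802 has 3.09% of the 50-base words of Snrpn. Its CPM was 0.370 to 0.505 of that of Snrpn in every library, so the 2 levels rose together. Whether reads of one were counted in the other was not tested. Gnas (chr2:174284320-174346744, plus strand) shares 13.1% of its exon bases with Gm20721 and 8.83% with Nespas, both on the opposite strand. Gm20721 was at 3.06 to 10.1 CPM. The library kit keeps the strand, but whether the counting used it is not given in the sources used here.

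Meg3 (chr12:109541001-109571726, plus strand) shares 6.79% with Gm26906 on the opposite strand, 94 bases with Mir770, 80 with Mir1906-1 and 97 with Gm27300. H19 (chr7:142575529-142578143, minus strand) shares 84 bases with Mir675 and about as much with Gm27483 and Gm27786 on the opposite strand, and Plagl1 (chr10:13060504-13131694, plus strand) 38 bases with Gm27741. No other gene overlaps the exons of Peg3 (chr7:6703892-6730431, minus strand), Ndn (chr7:62346569-62350262, plus strand), Dlk1 (chr12:109452823-109463336, plus strand) or Grb10 (chr11:11930508-12038683, minus strand). H19 and Meg3 are annotated as lincRNA and the other 8 as protein-coding.

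The levels were then followed over the chase, which tells whether a transcript held its level while its label decayed. Dlk1 alone of the tested genes passed the fold threshold between 0 and 12 h. In the E11.5 cells Dlk1 went from 33.6, 52.5 and 22.4 CPM to 12.7, 19.4 and 8.00 CPM, a fall in 3 of 3 pools with a log2 fold change of -1.27 ± 0.31 (adjusted p = 0.0161 by edgeR). It was the 1 gene called of 10 tested, where 3.69% of all genes were. In the E16.5 cells it went from 1.83, 1.61 and 1.68 CPM to 0.786, 0.839 and 0.678 CPM, again in 3 of 3 pools, with a log2 fold change of -1.07 ± 0.22 (adjusted p = 0.00695). It was 1 of 9 called, where 2.63% of all genes were. In the E14.5 cells Dlk1 was higher at 12 h in 3 of 3 pools, at 2.06, 3.01 and 2.26 CPM against 1.36, 2.37 and 1.13 CPM, with a log2 fold change of 0.58 ± 0.29 (adjusted p = 0.226, and 0.0468 with the pool as a block). There 0 of 9 genes were called by edgeR and 0 by DESeq2, with 4 at an unadjusted p under 0.05 and 1.99% of all genes called. At E11.5 and E16.5 an unadjusted p under 0.05 was found for 7 of 10 and 7 of 9 genes. The Dlk1 call at E11.5 was lost without replicate A (adjusted p = 0.157, log2 fold change -1.24). That at E16.5 was lost without A (0.0819, -1.01) or C (0.0542, -1.03). These fits did not use the pool as a block. With the block and all replicates, the adjusted p of Dlk1 by edgeR was 8.94e-11 at E11.5 and 0.00370 at E16.5. The noncoding RNAs also ended lower in most pools. Meg3 was lower at 12 h in 9 of 9 pools, by log2 fold changes of -0.38, -0.38 and -0.56 (adjusted p = 0.446, 0.370 and 0.0715 by edgeR, the last 0.000459 with the pool as a block). H19 was lower in 3 of 3 pools at E14.5 (-0.53, adjusted p = 0.0635, or 0.00172 with the block) and at E16.5 (-0.62, adjusted p = 0.0189). At E11.5 H19 went the other way and was higher in 2 of 3 pools (0.46, adjusted p = 0.0726 by edgeR, or 0.00317 with the block).

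**Figure D3:**
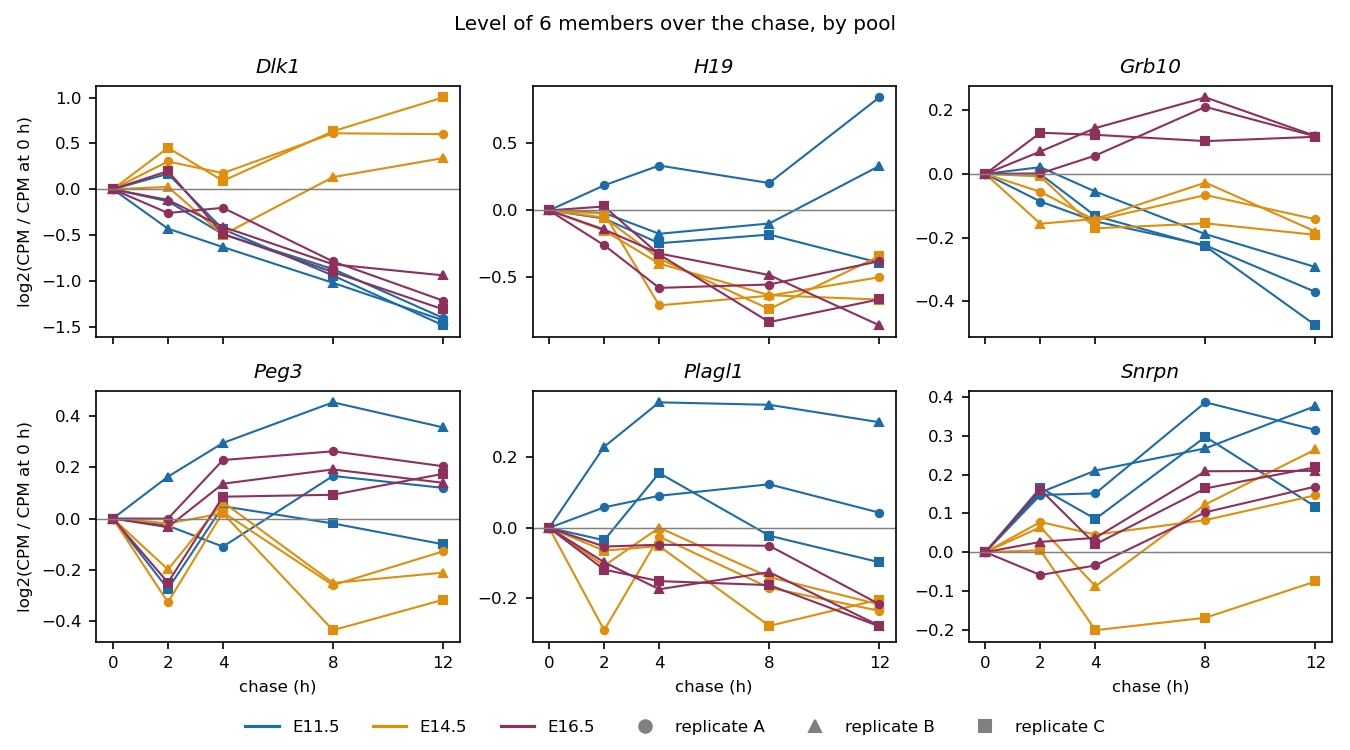
Log2 of the CPM over that at 0 h of the same pool, against hours of chase, for 6 of the genes. Each line is 1 pool, coloured by stage. All Dlk1 lines of E11.5 and E16.5 end below 0 and all of E14.5 above it, and the Grb10 lines of E16.5 end above those of the earlier stages.

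Smaller movements differed in direction between the stages. A test of the difference in the 12 h change, chosen after the values had been seen, called 4 of 9 genes between E11.5 and E14.5 at an adjusted p under 0.05 (Peg3, H19, Dlk1 and Plagl1), where 5.32% of all genes were called. Between E11.5 and E16.5 it called 3 of 9 (H19, Plagl1 and Grb10, 7.36% of all genes). Between E14.5 and E16.5 it called 0, with 3 at an unadjusted p under 0.05 and 0.430% of all genes. With the pool as a block, since wells at 0 and 12 h share a pool, the counts were 6 of 9 (Ndn and Snrpn added, 12.0% of all genes), 5 (again Ndn and Snrpn added, 16.3%) and 3 (Peg3, Dlk1 and Grb10, 3.90%). Grb10 went from 1037, 974 and 969 CPM to 802, 795 and 697 CPM in the E11.5 pools, with a fitted log2 fold change of -0.20 ± 0.06. In the E16.5 pools it went from 173, 185 and 165 CPM to 187, 201 and 179 CPM, with 0.16 ± 0.05 (adjusted p = 0.0586 by edgeR, and 0.000981 with the block). The CPM of E11.5 at 12 h share their total with Gm42418, while the fit scales on most genes (TMM). For Gnas, this gives a fitted change of 0.08 although its CPM was lower in 2 of 3 pools.

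Label loss was read as the conversion rate of a gene over its rate at 0 h, and a half-life was fitted to it. Where a gene of the 10 gave a half-life, its stage mean lay above the median of all kept transcripts. A half-life was kept if it passed all filters in all 3 replicates. These were more than 500 covered Ts at each time, R2 over 0.6 and a half-life under 24 h. They were passed by 6 of the 10 genes at E11.5 and E14.5 and by 7 at E16.5, against 20.3, 20.0 and 22.2% of all 53491 genes. That base includes genes without reads, as a library held a read for 21571 to 25000 genes. It is therefore not a like comparison with genes of similar level. The median over the kept genes of the 10 was 6.49, 7.37 and 7.10 h. Over all kept transcripts, the mean of the replicate medians was 4.38, 4.56 and 3.46 h. Filters passed at every stage for Gnas, Peg3, Ndn, Snrpn, Plagl1 and Grb10, and Meg3 was added at E16.5.

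Among the genes with a half-life, Gnas lost label most slowly. The E11.5 pools gave half-lives of 13.9, 18.3 and 13.7 h, the E14.5 pools 16.8, 18.4 and 23.8 h, and the E16.5 pools 15.3, 16.7 and 16.53 h. All 9 were longer than the chase of 12 h, so they extend the curve beyond the last measurement. What was measured is that 49.2 to 61.1% of its 0 h rate was left at 12 h, against 13.2 to 26.0% for the library. The mean lay at the 99.5th percentile of all kept half-lives at E11.5 and at 99.9 at both later stages. When the rate was multiplied by the level to give a labelled amount, the mean at E14.5 was 26.1 h and failed the 24 h limit.

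Ndn and Grb10 held half-lives between those of Gnas and those of Peg3 and Plagl1, which varied little. Their means sat between the 87.3 and 94.2 percentile of all kept transcripts at each stage, so they were long among all transcripts. Ndn was at 8.20, 7.54 and 6.97 h in the E11.5 pools, then 7.22, 7.54 and 8.00 h, and lastly 6.79, 6.81 and 7.16 h. Grb10 was at 6.91, 7.91 and 6.51 h, then 6.50, 7.48 and 7.45 h, and lastly 7.58, 6.46 and 7.26 h. The stages overlapped for Grb10, and for Ndn E16.5 lay below E14.5 and overlapped E11.5. Grb10 showed little loss at first, with 92.8 to 109.7% of the 0 h rate at 2 h over the 9 pools against 79.2 to 89.2% for the library. A fit without the 0 h point gave Grb10 a mean of 4.87 h at E11.5 in place of 7.11 h.

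Peg3 and Plagl1 lost label faster. Peg3 was at 4.67, 5.40 and 4.33 h, then 5.28, 5.07 and 5.53 h, and lastly 3.25, 4.202 and 3.76 h, where all E16.5 replicates lay below those of the earlier stages. Plagl1 was at 4.92, 5.23 and 4.38 h, then 5.06, 5.04 and 5.68 h, and lastly 4.30, 4.57 and 4.47 h. Their means sat between the 56.4 and 71.7 percentile of all kept transcripts at each stage. Neither was called on the z-scored scale described next (adjusted p = 0.741 and 0.124 by limma), while Peg3 was called when half-lives in hours were tested.

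**Figure D4:**
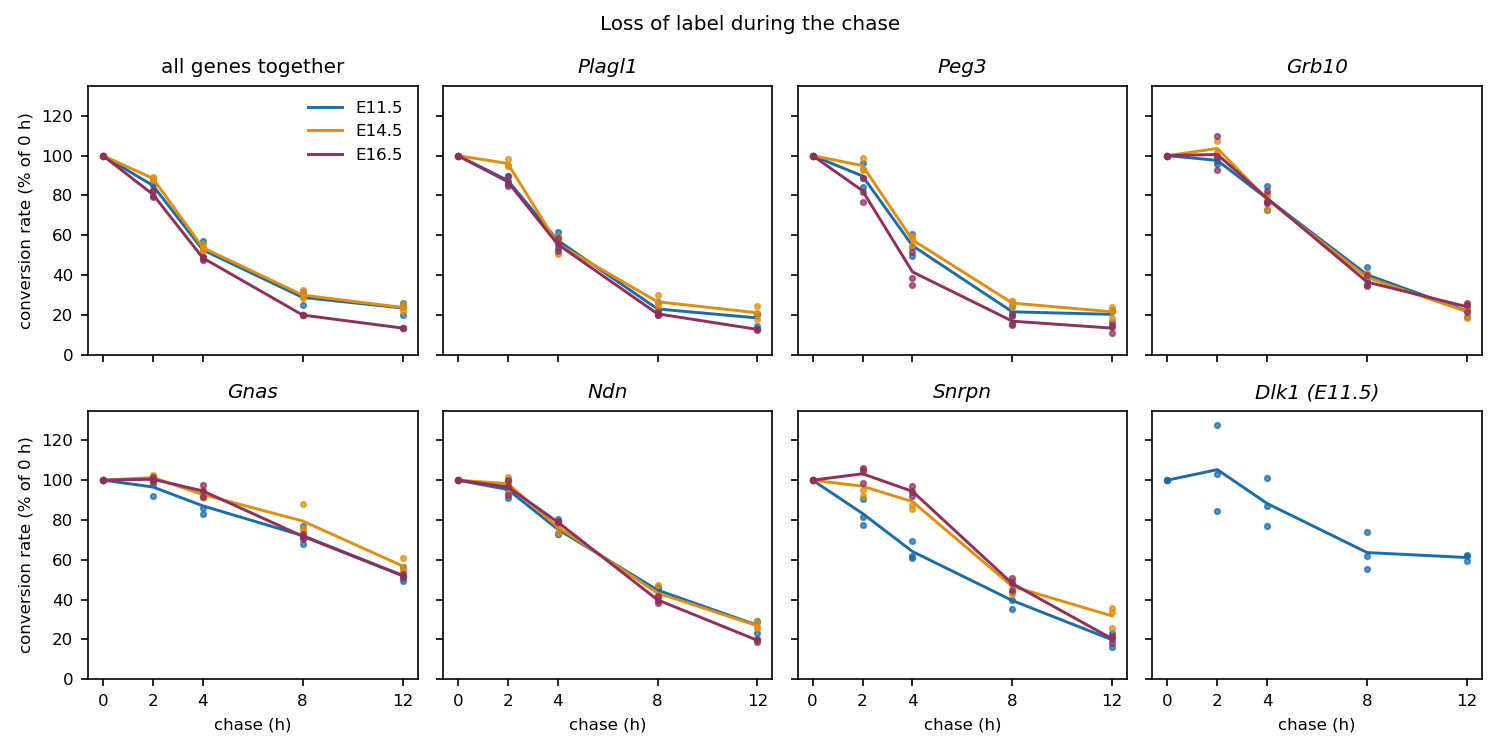
Conversion rate as a percentage of that at 0 h, against hours of chase, for all genes together and for 7 of the imprinted genes. Points are replicates and lines their means, coloured by stage, and Dlk1 is shown at E11.5 only. Gnas keeps 49.2 to 61.1% at 12 h, and the E11.5 line of Snrpn lies below those of the later stages at 4 h.

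Snrpn was the 1 gene whose half-life relative to other transcripts was called as changed between the stages. The E11.5 pools gave 6.23, 5.75 and 5.64 h, the E14.5 pools 9.43, 7.91 and 9.54 h, and the E16.5 pools 8.33, 8.85 and 8.33 h, so that E11.5 lay below both later stages without overlap. At 4 h of chase, 61.1 to 69.4% of its label was left at E11.5, 85.6 to 94.6% at E14.5 and 92.3 to 96.8% at E16.5. At 12 h it was 15.97 to 23.2%, 25.8 to 35.5% and 18.1 to 21.4%, so that E11.5 and E16.5 overlapped by then. Since the median half-life was shorter at E16.5, each replicate was also put on a z-score scale of the 9505 transcripts with a half-life at all stages. The z-score of Snrpn was 0.716, 0.2402 and 0.918 at E11.5, 2.30, 1.48 and 1.82 at E14.5, and 2.79, 2.996 and 2.68 at E16.5, and the groups did not overlap. By limma's F-test, Snrpn was the 1 of 6 genes called (adjusted p = 0.0154), where 3.15% of all transcripts were. Its difference between E16.5 and E11.5 was 2.20 ± 0.24 SD units (adjusted p = 0.00642), in a direction in which 2.99% of transcripts were called. The call of the F-test was lost without the 0 h point, without any of the 3 replicates of E16.5, and by labelled amount, where Grb10 was called in its place. The difference between E16.5 and E11.5 itself kept an adjusted p under 0.05 in each of these except without the 0 h point (1.07 SD units, adjusted p = 0.0717 by limma). The same difference for Gnas was 1.99 SD units (adjusted p = 0.0715), which passed 0.05 without the 0 h point (0.0389) and without E14.5 C (0.0430).

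In the 3′ untranslated region (UTR), AT-rich ATTTA words are known sites of decay factors. Snrpn has 5.42 of them per kb, above 93.7% of 21028 coding genes, whose median is 1.22 per kb. This rests on 4 words in a UTR of 738 bases. Peg3 has 2.21 and Plagl1 3.09 per kb, in UTRs of 3614 and 2590 bases, and Gnas has 3.05 per kb in 1313 bases. Grb10 has 1.69, Ndn 1.14, Dlk1 0.34 and Igf2 0.33 per kb. These counts use 1 isoform of each gene, and no test was run on them.

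Meg3 had a half-life at E16.5 only, of 12.5, 7.01 and 7.14 h. Of the 3 genes without one, Igf2 had more than 500 covered Ts in 4 of 45 libraries, all at E11.5. Dlk1 was covered at E11.5, where the fits gave 18.8, 12.6 and 18.8 h and replicate A missed the R2 limit with 0.522. It kept 59.1 to 62.3% of its 0 h rate at 12 h, above the 49.2 to 56.5% of Gnas at that stage. The labelled amount, which takes in the fall of its level, gave Dlk1 a mean of 5.999 h at E11.5 and passed the filters. H19 had over 500 covered Ts in all 45 libraries, yet no stage passed the filters in all replicates. At 2 h it was at 113, 136 and 130% of the 0 h rate in the E11.5 pools, and at 12 h at 28.2, 58.4 and 74.4%. Without the 0 h point H19 passed at E11.5, and by labelled amount at E16.5.

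The label content at 0 h was compared as log2 of the rate of a gene over the rate of its library. Grb10, Plagl1 and H19, which fell with the stage, carried less label at E16.5 than at E14.5. By limma's F-test over the stages, 3 of 8 genes were called (Grb10, adjusted p = 0.000182; Plagl1, 0.00263; H19, 0.0162), against 18.1% of the 12522 genes tested. H19 was not called without E14.5 B and not tested at over 2000 covered Ts, and Dlk1 was called as well without E14.5 C. Grb10 had rates of 1.11, 1.03 and 1.54% at E11.5, 1.19, 1.25 and 1.08% at E14.5, and 0.896, 1.08 and 1.06% at E16.5, where the libraries as a whole had the highest rates. Its log2 over the library was 0.03, 0.03 and 0.10, then 0.13, 0.08 and 0.08, and -1.01, -0.82 and -0.83 at E16.5. The last group was far below the others. At E16.5 it averaged at the 2.55th percentile of genes. Against E14.5, the E16.5 values of the 3 genes were lower (Grb10 -0.98 ± 0.06, H19 -1.01 ± 0.19, Plagl1 -0.33 ± 0.05), as were 13.8% of all genes. Grb10 (-0.93 ± 0.06) and Plagl1 (-0.42 ± 0.05) were also lower than at E11.5, as were 11.8% of all genes.

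**Figure D5:**
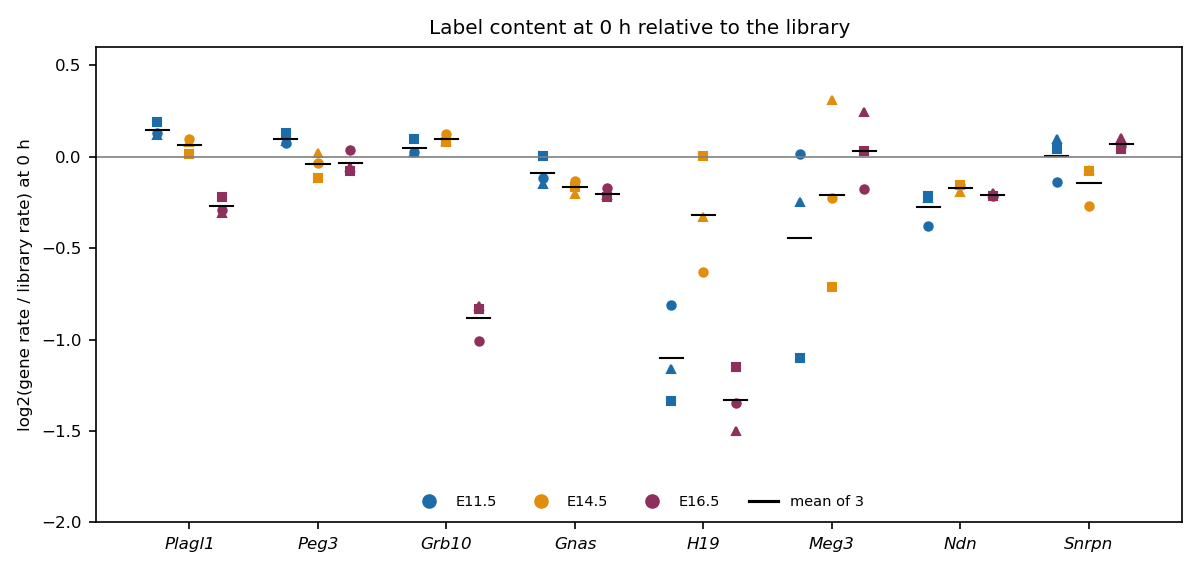
Log2 of the conversion rate of a gene over that of its library at 0 h, for the 8 genes with enough coverage. Points are replicates by stage and black bars their mean. Grb10 at E16.5 averages -0.88 and H19 lies at -1.10 at E11.5 and -1.33 at E16.5.

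H19 was low in label from the start. Its log2 over the library was -0.81, -1.16 and -1.33 at E11.5, -0.63, -0.33 and 0.00 at E14.5, and -1.34, -1.50 and -1.15 at E16.5. These averaged at the 0.708th, 17.7th and 0.572th percentile of genes, and the middle stage overlapped neither of the others. Plagl1 was at 0.13, 0.12 and 0.19, then at 0.10, 0.08 and 0.01, and at -0.29, -0.31 and -0.22 at E16.5, below all earlier replicates. The log2 values of Gnas, Peg3, Ndn and Snrpn stayed between -0.38 and 0.13.

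Other imprinted genes, from a list of 23 paternally and 19 maternally expressed genes, did not move one way. Of the paternally expressed ones, 20 were in the tables and 17 tested, and over the whole period 4 rose and 4 fell (14.7 and 14.6% of all genes), with a median log2 fold change of 0.20. The largest changes were Slc38a4 (-3.70), an amino acid transporter, Magel2 (-3.19) and Mest (-3.19), Peg12 (-2.63) and Nnat (2.59), a small membrane protein of neurons. Of the maternally expressed ones, 12 of 19 were tested, 3 rose and 3 fell, with a median of 0.35. Kcnk9, a potassium channel, rose by 6.34 on the log2 scale, Blcap by 1.81 and Rian, a noncoding RNA of the Dlk1-Meg3 cluster, by 1.74. Asb4 fell by 4.94 and Atp10a by 2.03. Nnat had the longest half-life of the paternally expressed genes, with stage means of 12.5, 14.8 and 12.6 h. The shortest was that of Mkrn3 at E11.5 (1.70 h) and E16.5 (1.50 h), and that of Peg12 at E14.5 (3.17 h). Medians over the kept paternally expressed genes were 4.29, 5.47 and 4.02 h, in order of stage. Those of the maternally expressed genes were 4.50, 5.45 and 3.63 h. For all kept transcripts, replicate medians averaged 4.38, 4.56 and 3.46 h. The paternally expressed median was below this value at E11.5, and the other medians were above it.

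A further list held 16 genes of the IGF pathway, in which Igf2 and Grb10 act, and of proteins that bind Igf2 mRNA. Of the 16, 14 were tested between E11.5 and E16.5. Of these, 2 rose and 6 fell (14.7 and 14.6% of all genes), with a median log2 fold change of -0.93, against -0.04 over all genes tested. The binding protein gene Igfbp5 fell by 2.78. Igf2bp2, Igf2bp1 and Igf2bp3, which encode RNA-binding proteins of Igf2 mRNA and are among the 6, fell by 2.77, 2.38 and 1.67. Igf1, the other growth factor of the pathway, rose by 2.12, from a mean of 0.829 CPM to 3.71 CPM.

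Over the 45 libraries, genes most like each of the 10 were found by the correlation of log2(CPM + 1) among 11505 genes (11506 for Igf2 and Meg3) with a mean of at least 5 CPM. Because libraries share their stage and pool, this is a description only. Plagl1 was closest to Plag1 (r = 0.99), a member of its own zinc finger family, with Plagl2 the third. Grb10 was closest to Aldoc (0.99), Etv6 and Hus1, Peg3 to Fndc3c1 (0.99) and Cntn6, and H19 to Slc25a13 (0.97), Rfx2 and Wipi1. Igf2 was closest to Col6a1 (0.94), Nid2 and Col1a2, of which Col1a2 is a fibroblast marker. Snrpn was closest to Stx7 (0.98), Ctnna2 and Atl1, Ndn to Nt5dc2 (0.98), Tpi1 and Rbm38, and Dlk1 to Camk2d (0.97), Cyp26b1 and Phc2. Gnas was closest to Fbxw8 (0.96), Vat1 and Ssbp4, and Meg3 to Dennd6b (0.92), B4galnt4 and Rai1. None of the 10 was among the nearest 3 genes of another, although Igf2 and Meg3 could not be, since their means were under 5 CPM.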

How the data were processed

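The 9 deposited tables held covered T positions as raw counts, conversion rates that the authors made as a fraction of covered Ts, and expression in CPM. Per the labels, reads were mapped to mm10, and the authors summed exons of each gene with SlamDunk output. Half-lives and R2 values of the authors were not used. Half-lives were refitted here as exp(-kx) on rates over the 0 h rate. Covered Ts were tested with edgeR 4.0.16 (TMM, more than 10 counts in all libraries compared) in R 4.3.3, z-scored half-lives and label content with limma 3.58.1, all with Benjamini-Hochberg adjustment over all features tested. DESeq2 1.42.0, whole reads recovered from CPM (100% of values within 0.01 reads), other filters, replicate blocks and leaving out replicates were alternatives. Scripts were tested on simulated data. Wells of one pool shared deviations from the group mean (r = 0.29 to 0.67 over 9 pairs of 0 h and 12 h wells), as the protocol, which divides a pool over wells, implies. The 10 genes and all lists were chosen with earlier results of these data known. Named beyond the 10 are at most 5 called genes per list with the largest changes, the 3 nearest genes by correlation (1 of which is not reported here), and genes overlapping exons. Annotation came from GENCODE 21 on GRCm38, which named 96.6% of the genes. Snurf, Nespas and Peg3os were not analysed here.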

Additional observations from a re-analysis of the deposited data

Results flagged for a closer look

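The change of level over 12 h of chase differed between stages for 5 of the genes, by a test of the difference itself (edgeR, called at an adjusted p under 0.05 over 17224 genes). Values are log2 differences of the 12 h change, later minus earlier stage. Between E11.5 and E14.5 the difference was 1.81 for Dlk1, -1.03 for H19, -0.54 for Peg3 and -0.50 for Plagl1. Between E11.5 and E16.5 it was -1.08 for H19, -0.50 for Plagl1 and 0.35 for Grb10. Over all genes tested, 5.32% were called between E11.5 and E14.5 and 7.36% between E11.5 and E16.5. With the pool as a block, 7 of the imprinted genes were called. The shares of all genes then rose to 12.0 and 16.3%, and to 3.90% from 0.430% between E14.5 and E16.5. Ndn (-0.27 and -0.29) and Snrpn (-0.37 and -0.27) were added in the comparisons with E11.5. For E16.5 minus E14.5, Peg3 (0.45), Dlk1 (-1.68) and Grb10 (0.35) were called, where 0 were without it. The test was chosen after the values had been seen. The E11.5 libraries at 12 h enter all 7 differences called without the block. In these libraries Gm42418 took 2.97 to 6.76% of the reads, and its part in the differences was not tested.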

How the results depend on the processing

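All calls of expression between stages were the same genes under DESeq2, recovered reads, limma, covered Ts over 100 and the replicate block. Without a filter Igf2 was also called in each comparison. The count called at 12 h ranged from 0 to 1 at E11.5 and at E16.5 when 1 replicate was left out. Relative half-life called 1 gene, but 2 with half-lives in hours (Peg3 and Snrpn), 0 without 0 h, 0 with the replicate block, and 0 to 2 with 1 replicate left out (2 without E11.5 B, 0 without E16.5 A, B or C). With R2 over 0.8, where Snrpn was not tested, and by labelled amount, an alternative chosen after seeing the data, the 1 gene was Grb10. Letters do not pair pools across stages (r = -0.17 to 0.21), so that block has no basis in the design. In the tests of the 12 h change between stages, where wells of a pool do pair, the replicate block gave 3 genes in place of 0 between E14.5 and E16.5 and 5 in place of 3 between E11.5 and E16.5. It changed no call of the 12 h changes within a stage, which also need the fold threshold.

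No value that changed sign had been called. Dlk1 between E14.5 and E16.5 (0.04) ranged from -0.18 to 0.43 with 1 replicate left out, and was below 0 without E14.5 A (-0.07) or C. Igf2 at 12 h in E11.5 (0.03) was -0.025 with recovered reads and -0.24 to 0.25 with 1 replicate left out. For half-lives, E16.5 against E11.5, Peg3 (-0.04) was 0.0055 without 0 h and -0.18 to 0.084 with 1 replicate left out (above 0 without E16.5 A), Ndn (0.42) was -0.65 in hours and -0.17 by labelled amount, Plagl1 (0.35) was -0.40 and -0.26, and Grb10 (0.78) was -0.0083 in hours but 1.92 (adjusted p = 0.0120 by limma) by labelled amount. Snrpn label content (0.07) ranged from -0.0011 without E11.5 A to 0.12. Half-lives rest on rates in which no library without label was used here, and subtracting a background, dropping 0 h or using the labelled amount moved each of the 19 half-lives by more than its replicate SD at least once (47 moves in all). Low counts limit Igf2, Meg3 and late Dlk1. The cause was not tested for any of these.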
